A study of Mus musculus with 5 samples.

Results

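The genes described here encode the proteins of the cytoplasmic ribosome. They were chosen by symbol from the platform annotation: Rpl or Rps followed by a number, with an optional final a, x or l, together with Rplp0, Rplp1, Rplp2 and Rpsa, and without the Rps6k kinases. Of 18193 genes with a probe set of their own, 46 met this rule, 24 of the large subunit and 22 of the small subunit. A further 28 symbols that meet the rule occur only on probe sets annotated with several genes, and no level is given for them by name.

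RNA came from 32D, a mouse myeloid cell line whose growth ordinarily needs interleukin-3, after stable retroviral transduction with FLT3-ITD. In this mutant form of the receptor kinase FLT3, an internal tandem duplication (ITD) gives signalling in the absence of ligand. The 5 groups were ITD613, ITD78, ITD598, ITD602 and ITD611, with 1 Affymetrix array each. All 5 were starved for 3 h and then given a tyrosine kinase inhibitor (TKI), which the labels do not name, for 1 h. The labels give neither what the construct numbers mean, nor the species of the FLT3 sequence, nor how many clones or pools were transduced.

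A ribosome is built from ribosomal RNA and one copy of nearly every ribosomal protein, so that a cell must supply these proteins in matched amounts. Their messenger RNAs are abundant and stable, and in vertebrates they begin with a run of pyrimidines, the 5′ terminal oligopyrimidine (TOP) tract. This tract lets growth signals through mTORC1 and the RNA-binding protein LARP1 set their translation while their RNA level changes little. In blood cells the supply of ribosomal proteins has a particular importance, because in humans the loss of 1 copy of several of these genes causes Diamond-Blackfan anaemia.

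Start-site windows are shown for 6 members, since the TOP tract is the feature that these genes share and on which no level was measured. The first 4 are the members with the largest differences between arrays described below, and Rps26 and Rps4x are the steadiest bright members with a single annotated promoter. Each window runs from 50 bases before to 50 bases after the annotated start, is read 5′ to 3′ from RefSeq (GRCm38.p6), and has its longest pyrimidine run in capitals.
Rpl37 (chr15:5116563-5116662, + strand): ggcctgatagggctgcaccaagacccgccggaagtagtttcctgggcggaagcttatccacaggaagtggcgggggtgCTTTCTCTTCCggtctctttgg
Rps27 (chr3:90213599-90213698, - strand): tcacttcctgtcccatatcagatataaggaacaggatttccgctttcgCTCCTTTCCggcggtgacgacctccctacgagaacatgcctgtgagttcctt
Rpl12 (chr2:32961662-32961761, + strand): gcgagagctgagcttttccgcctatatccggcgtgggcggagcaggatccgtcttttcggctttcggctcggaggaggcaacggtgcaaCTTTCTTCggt
Rps25 (chr9:44407664-44407763, + strand): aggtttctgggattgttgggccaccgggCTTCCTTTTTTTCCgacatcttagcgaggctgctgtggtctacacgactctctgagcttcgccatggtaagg
Rps26 (chr10:128626457-128626556, - strand): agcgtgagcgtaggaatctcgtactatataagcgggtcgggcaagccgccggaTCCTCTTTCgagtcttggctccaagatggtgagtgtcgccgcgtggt
Rps4x (chrX:102189342-102189441, - strand): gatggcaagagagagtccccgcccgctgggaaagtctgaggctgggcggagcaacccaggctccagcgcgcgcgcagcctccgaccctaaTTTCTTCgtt
The longest run was 11 bases for Rpl37, 9 for Rps27, 8 for Rpl12, 14 for Rps25, 9 for Rps26 and 7 for Rps4x. It began 28 bases after the annotated start in Rpl37, 39 in Rpl12, 40 in Rps4x and 3 in Rps26. In Rps27 the run began 2 bases before the start, and in Rps25 22 bases before it. The run in capitals need not be the TOP tract. Annotated starts need not be the starts used in these cells.

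Promoter windows were found for 37 of the 42 members that passed the filter on low values described below. A pyrimidine run of at least 8 bases lay within 50 bases of the start in 32 of these 37 (86.5%), in 36.6% of 7853 other genes tested and in 39.3% of all 27025 genes with a promoter in the table. A run of at least 5 that begins with C and touches the 5 bases on either side of the start was found in 22 of 37 (59.5%), against 30.9% of the other genes tested. The letters CCGGAAG, the core of many ETS-family binding motifs, occurred on either strand of the whole 300-base window in 19 of 37 (51.4%), against 22.4%. CACGTG, the E-box bound by MYC and MAX, occurred in 4 of 37 (10.8%), against 12.0%. These matches are descriptions of letters and not of bound sites.

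The values are log2 RMA values, in which a difference of 1 is a 2-fold difference. RMA is a background correction, a normalization between arrays and a summary of the probes of a probe set. Where a gene had several probe sets, the one with the highest average value was used. Genes whose value reached 2.75, the 60th percentile of the table, on at least 1 array were tested: 9621 genes, 42 of them ribosomal protein genes. The 4 members that did not pass were Rps4l, Rpl3l, Rps16 and Rpl39l, none above 1.71 on any array. Values up to 3.74 lie in a range where 100 or more probe sets of an array share one value. A difference that rests on such a value is therefore uncertain in size. With 1 array per construct there was no replicate and no test, and precision is limited by that number. Each array was instead set against the mean of the other 4, and a difference of at least 0.5 (1.41-fold) was the rule of size. The 5 comparisons share arrays and are not independent of one another.

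Of the 10 markers of the myeloid line, 7 passed the filter, among them Ptprc (7.41 on ITD613 and at least 8.31 on the others) and Csf2rb (6.71 on ITD613 and up to 8.54 on the others), while Kit and Cd34 did not exceed 0.92 on any array. Of the 10 markers, 5 read above 3.74, the top of the range of shared values, on ITD613 and 6 on each other array. The mean level of the 10 markers was 4.24 on ITD613, 4.49 on ITD78, 5.17 on ITD598, 5.25 on ITD602 and 5.01 on ITD611. Of the 7, 5 were lower by at least 0.5 on ITD613 and 4 on ITD78, against 9.51% and 2.73% of all genes. By the same size 4 were higher on ITD598, 6 on ITD602 and 3 on ITD611, against 1.8%, 4.39% and 1.5% of all genes. On ITD611 1 was also lower, against 2.53%. The part of these shifts in the differences described below was not tested. None of the 11 markers of T cells, B cells and fibroblasts with a probe set exceeded 3.74 on any array. The 3′ minus 5′ difference of the Gapdh control probe sets was 0.56 on ITD613, 0.34 on ITD78, 0.31 on ITD598, 0.30 on ITD602 and 0.59 on ITD611. The bioB hybridisation control (middle probe set) read 6.12 on ITD602 and 2.05 to 2.92 on the other 4 arrays. The title of the ITD602 array carries another run label than the other titles, so this label and the construct cannot be told apart.

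Ribosomal protein genes were among the brightest and steadiest genes on the arrays. Of the 42, 33 had a mean of at least 11 on a table that ends at 13.45, with means from 11.33 to 12.56, and 34 of the 100 genes with the highest means were ribosomal protein genes. These are positions on the scale, since probe sets of different genes cannot be compared as amounts of RNA. The range over the 5 arrays, highest minus lowest value, had a median of 0.12 for the 42 members and of 0.43 for all 9621 genes. It was below 0.25 for 36 of 42 members and for 20.6% of all genes.

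**Figure D1:**
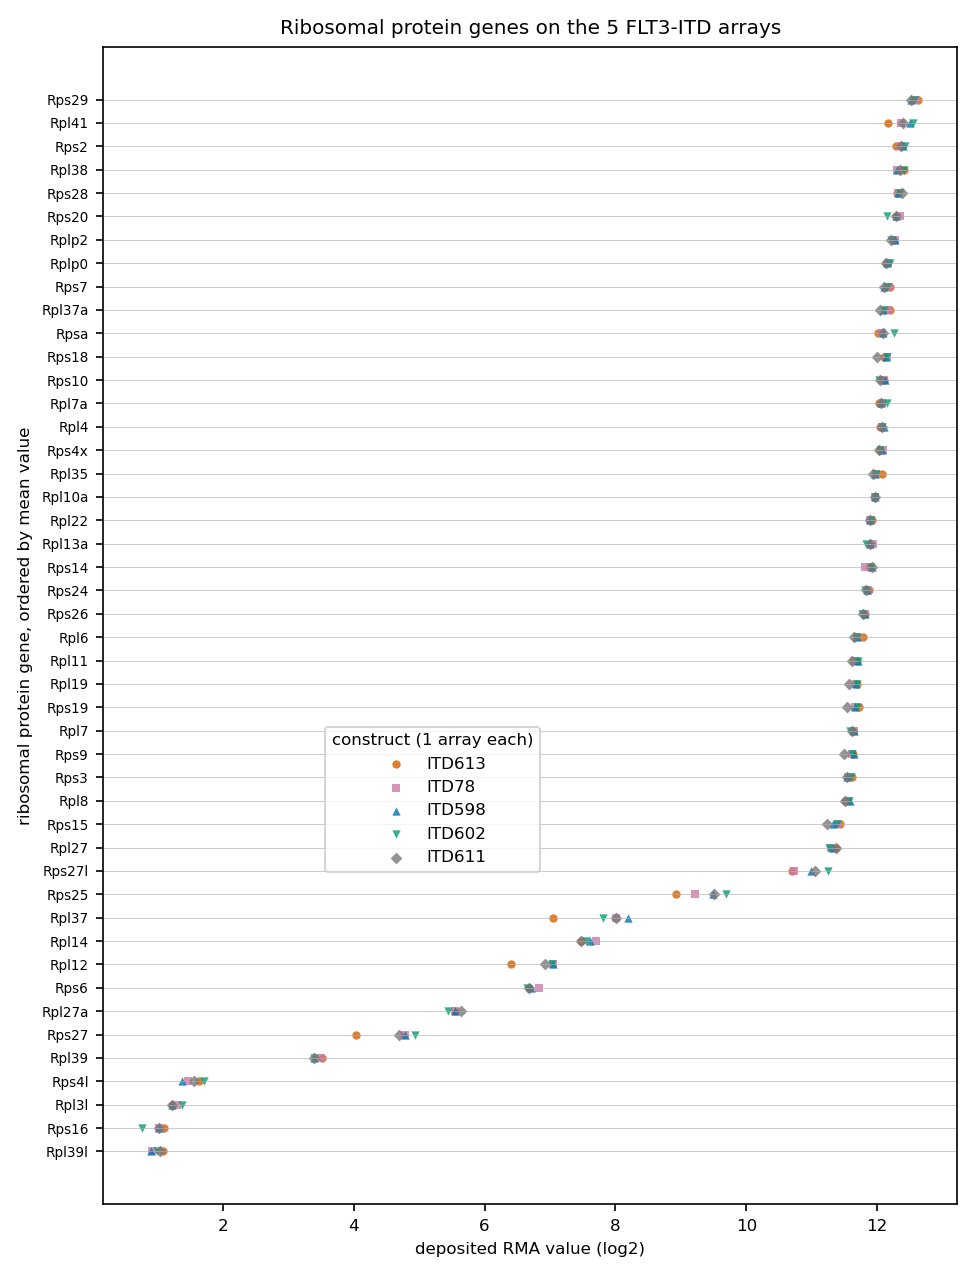
RMA values (log2, horizontal axis) of the 46 ribosomal protein genes (rows, ordered by mean) on the 5 arrays, 1 point per construct. For 33 genes the 5 points lie within 0.37 of one another at the right end of the scale, and ITD613 stands to the left of the other arrays for Rpl37, Rps27, Rpl12 and Rps25.

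Ranges were also compared among bright genes. Of the 33 members with a mean of at least 11, 32 (97.0%) ranged over less than 0.25, with a median of 0.10 and a highest range of 0.37. The other 48 genes with a mean of at least 11 had a median range of 0.29, and 17 of them (35.4%) ranged over less than 0.25. Above that limit, members and other genes were not matched in brightness. How far values at the top of the scale still follow the amount of RNA was not tested. The limit of 11 was chosen after the values were seen.

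**Figure D2:**
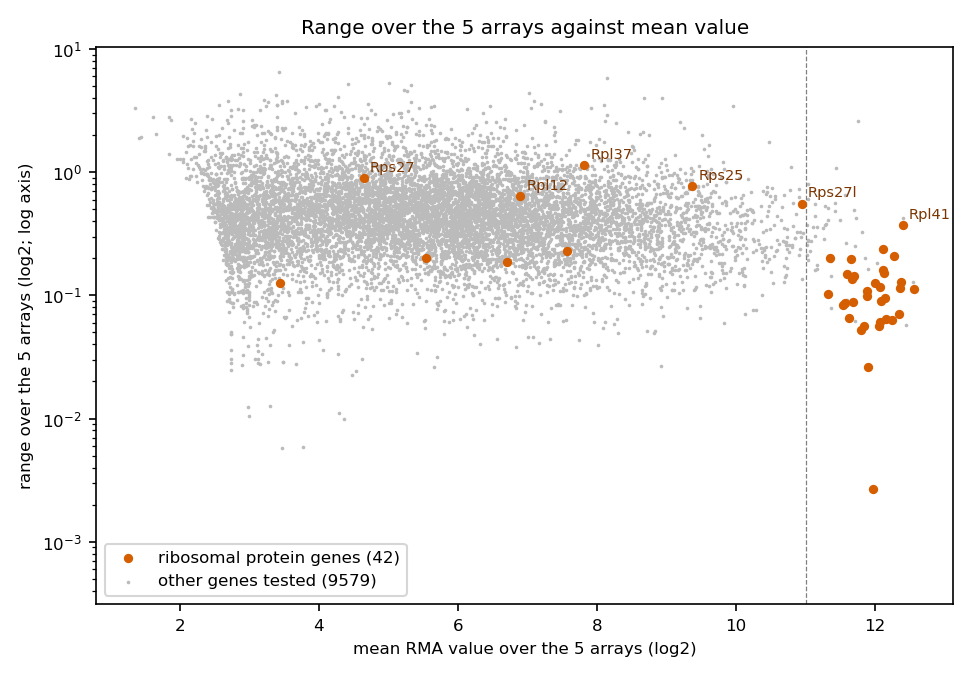
Range over the 5 arrays (log2 difference, log axis) against the mean RMA value (log2) for the 42 ribosomal protein genes and the other genes tested. The cluster of members right of the dashed line at 11 lies mostly below 0.25, while Rpl37, Rps27, Rps25, Rpl12 and Rps27l lie at 0.55 or above.

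The steadiest member was Rpl10a, a large-subunit protein near the exit site for transfer RNA, which read 11.96 on ITD613 and 11.97 on each of the other 4 arrays. Rpl22, an RNA-binding large-subunit protein, read 11.92 (ITD613), 11.89 (ITD78), 11.89 (ITD598), 11.91 (ITD602) and 11.89 (ITD611). Rps26, at the messenger RNA exit channel, read 11.82, 11.81, 11.82, 11.77 and 11.78 in the same order. The range over the 5 arrays was 0.0027 for Rpl10a, 0.026 for Rpl22 and 0.053 for Rps26. Exact ties between arrays were common throughout the table: 16 of the 42 members (38.1%) and 28.8% of all genes had the same value on at least a pair of arrays.

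The stalk of the large subunit recruits translation factors. Its base protein Rplp0 read 12.14 on ITD613, 12.17 on ITD78, 12.15 on ITD598, 12.20 on ITD602 and 12.14 on ITD611, and its acidic protein Rplp2 read 12.25, 12.28, 12.28, 12.21 and 12.22. Each ranged over 0.064. Rpl11, which with Rpl5 and the smallest ribosomal RNA can bind MDM2 and so stabilise p53, read 11.69 on ITD613, 11.65 on ITD78, 11.71 on ITD598, 11.71 on ITD602 and 11.62 on ITD611.

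Of 10 genes mutated in human Diamond-Blackfan anaemia that were listed, 6 had a probe set of their own. Rps19, the gene most often mutated in that disease, read 11.73 on ITD613, 11.66 on ITD78, 11.66 on ITD598, 11.70 on ITD602 and 11.53 on ITD611. The other 5, Rps7, Rps10, Rps24, Rps26 and Rpl11, ranged over 0.10 or less. On ITD613 all 6 stood above the mean of the other 4 arrays, by 0.019 to 0.093, and on ITD611 all 6 stood below it, with differences from -0.15 to -0.017. Of all genes, 52.2% stood above 0 on ITD613 and 45.2% on ITD611, and of the 42 members 23 and 13 did. None of these differences came near 0.5. Rps14, whose loss in the human 5q- syndrome impairs red cell formation, read 11.88 (ITD613), 11.82 (ITD78), 11.91 (ITD598), 11.90 (ITD602) and 11.91 (ITD611).

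On ITD613, 4 of the 42 members (9.52%) were lower than the mean of the other 4 arrays by at least 0.5, as were 9.51% of all genes tested. None of the 42 was higher by at least 0.5, against 12.6% of all genes. The share of lower members therefore equals that of all genes. The highest member difference on ITD613 was 0.11, for the large-subunit gene Rpl6. The median member difference was 0.0048, beside 0.015 for all genes, and 23 of 42 members were above 0, against 52.2% of all genes.

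**Figure D3:**
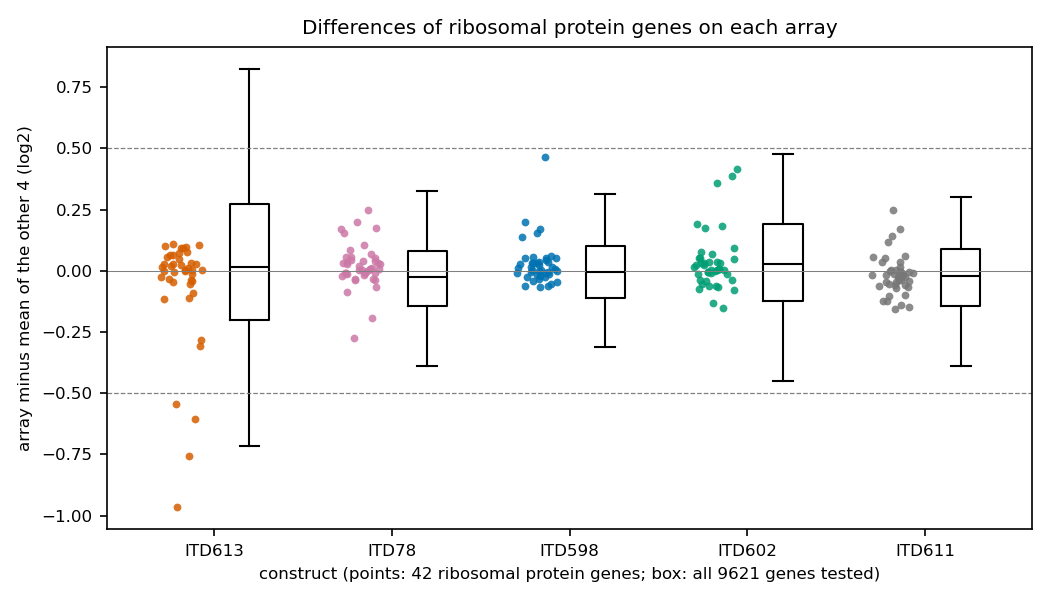
Difference of each array from the mean of the other 4 (log2), with 1 point per ribosomal protein gene and a box (median and quartiles, with whiskers at percentiles 5 and 95) for all 9621 genes tested. On ITD613 the points gather near 0 except for 4 genes below the dashed line at -0.5, and on the other 4 arrays no point lies beyond 0.5.

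The 4 lower members were Rpl37, Rps27, Rpl12 and Rps25, and each read lower on ITD613 than on every other array. Rpl37, a zinc-binding protein of the large subunit, read 7.04 on ITD613, against 8.01 on ITD78, 8.18 on ITD598, 7.81 on ITD602 and 8.01 on ITD611. The difference was -0.97, beside an SD of 0.15 over the other 4 constructs, which are not replicates. Its probe set has the suffix _x_at, which Affymetrix gives where probes may also match other transcripts, as do 13 of the 42 chosen probe sets. Rpl37 was also the 1 member of 42 with a range of at least 1, a rule that 10.4% of all genes met.

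Rps27, a zinc-binding protein of the small subunit, read 4.04 on ITD613, against 4.78 on ITD78, 4.78 on ITD598, 4.93 on ITD602 and 4.69 on ITD611, a difference of -0.76. Rpl12, at the base of the stalk, read 6.41 on ITD613, against 7.05, 7.05, 7.03 and 6.92 on ITD78, ITD598, ITD602 and ITD611, a difference of -0.61. Rps25, a small-subunit protein that some viral RNAs need to start translation, read 8.93 on ITD613, against 9.21 on ITD78, 9.49 on ITD598, 9.70 on ITD602 and 9.50 on ITD611. Its difference was -0.55, and without the ITD602 array it was -0.47, short of the rule.

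None of these 4 values comes from a bright probe set, and brighter probe sets whose annotation includes the same symbol beside other genes read otherwise. A probe set annotated with Rps27 and another gene read 11.58 on ITD613, against 11.45 on ITD78, 11.27 on ITD598, 11.23 on ITD602 and 11.27 on ITD611, a difference of 0.27 in the other direction. The probe set annotated with Rps25 and other genes read 11.62 on ITD613 and 11.59 to 11.62 on the other 4. The brightest of those that include Rpl37 had a difference of -0.040 on ITD613, and the brightest of those that include Rpl12 had -0.019. Which transcripts the dimmer and the brighter probe sets detect was not tested. When probe sets with several symbols were allowed to stand for a member, 0 of 67 members were lower or higher on ITD613 by 0.5, a choice made after the values were seen.

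The same division between bright and dimmer probe sets ran through all 210 probe sets that carry a symbol of the rule, alone or with others, of which 193 reached 2.75 on some array. Among the 131 with a mean of at least 11, none differed by 0.5 from the mean of the other 4 on any array, and the largest difference was 0.42. Among the 62 dimmer ones, 20 did so on at least 1 array. That count was not made over all genes, so whether it is high for dim probe sets is not known. On ITD613, 12 of these 62 were lower and 3 were higher. Of all genes tested 9.51% were lower and 12.6% higher, but those shares count 1 probe set per gene at any brightness. The 62 hold several probe sets of some genes, so counts and shares are not like for like. Some of the 12 lie in the range of shared values on ITD613, among them a probe set that includes Rpl9, at 3.11. Whether this division is particular to ribosomal protein genes was not tested. The median range was 0.14 for the bright and 0.43 for the dimmer probe sets, and the median range of all genes was also 0.43.

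**Figure D4:**
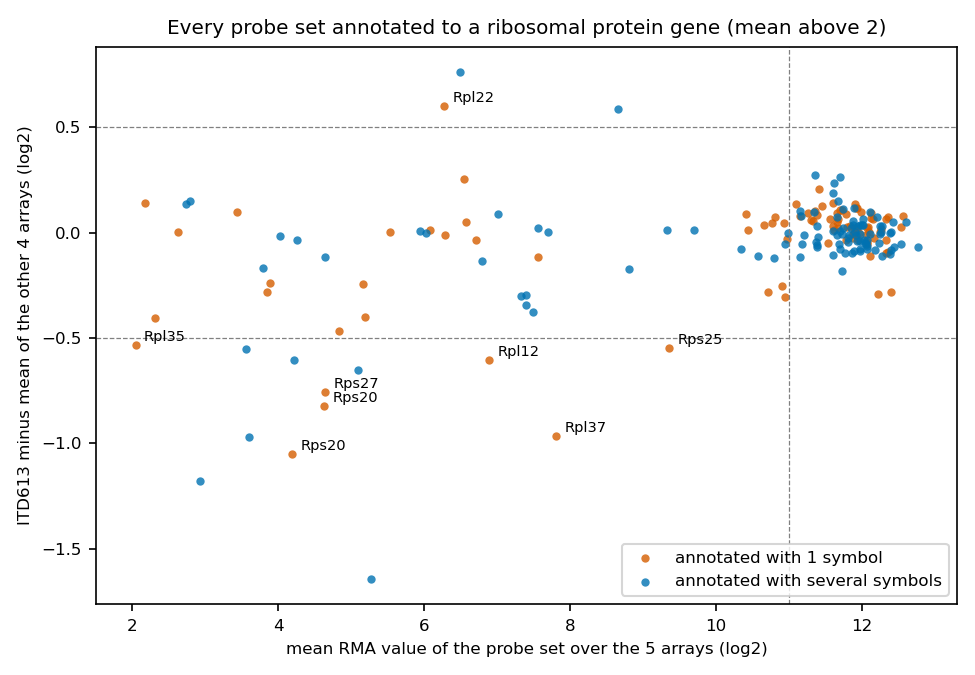
Difference of ITD613 from the mean of the other 4 arrays (log2) against mean RMA value (log2) for the probe sets annotated to a ribosomal protein gene alone (orange) or with other genes (blue), for means above 2. Right of the dashed line at 11 the points stay within 0.5 of 0, and the named points beyond 0.5 all lie left of it.

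Members with several probe sets showed this within 1 gene. Rps20, a small-subunit protein, read 12.28 on ITD613, 12.35 on ITD78, 12.28 on ITD598, 12.15 on ITD602 and 12.28 on ITD611 on its brightest probe set. A dim probe set of Rps20 read 3.97 on ITD613, against 5.21, 4.82, 4.45 and 4.68 on ITD78, ITD598, ITD602 and ITD611. Another read 3.35 on ITD613, in the range of shared values, against 4.68, 4.44, 4.30 and 4.18 on the same other arrays. Both were lowest on ITD613 and highest on ITD78. A dim Rpl22 probe set went the other way and split the arrays: it read 6.76 on ITD613 and 6.74 on ITD78, against 5.97 on ITD598, 5.97 on ITD602 and 5.94 on ITD611, while the bright one did not. A dim probe set of Rps9, a small-subunit protein that in yeast affects decoding accuracy, was low on ITD602 instead, at 5.86, against 6.75 on ITD613, 6.77 on ITD78, 6.85 on ITD598 and 6.51 on ITD611. Another dim Rps9 probe set was highest on ITD602, at 5.51, against 4.92 to 5.22 on the other 4 arrays.

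In all, the members had 54 further probe sets of their own, of which 45 reached 2.75. The 33 with a mean of at least 10 had a median range of 0.16 and a highest range of 0.43. The 12 with a mean under 7 had a median range of 0.52. These probe sets were named after their values were seen.

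All 3 probe sets of Rps27l, but only the bright pair of the 4 of Rpl41, were lower on ITD613. Rps27l is a paralogue of Rps27 whose transcription p53 activates. It read 10.69 on ITD613, 10.72 on ITD78, 10.98 on ITD598, 11.25 on ITD602 and 11.05 on ITD611, so that ITD613 and ITD78 lay below the other 3 arrays. The other probe sets of Rps27l read 10.70 and 10.49 on ITD613, 10.80 and 10.61 on ITD78, and between 10.79 and 11.05 on the other 3 arrays. All 3 probe sets were lowest on ITD613, by 0.26 to 0.31 below the mean of the other 4 arrays, which is short of 0.5. Rpl41, the smallest ribosomal protein, read 12.17 on ITD613, 12.37 on ITD78, 12.51 on ITD598, 12.54 on ITD602 and 12.39 on ITD611. A second bright probe set of Rpl41 gave a difference of -0.29 on ITD613, beside -0.28 for the first, and its 2 dimmer ones gave 0.05 and 0.01.

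On ITD78 none of the 42 members was higher by 0.5, against 1.89% of all genes, and none was lower, against 2.73%. More members than genes in general stood above the mean of the other 4 arrays, 27 of 42 (64.3%) against 42.7%. The median difference was 0.011, beside -0.027 for all genes, and only Rps14 of the 42 was lowest on ITD78. The extremes were Rpl37 at 0.25 and Rps27l at -0.27. Rpl14, a large-subunit protein, read 7.70 on ITD78, against 7.47 on ITD613, 7.60 on ITD598, 7.56 on ITD602 and 7.48 on ITD611. Rps6, the ribosomal substrate of the S6 kinases, read 6.83 on ITD78, against 6.68, 6.70, 6.64 and 6.68 on ITD613, ITD598, ITD602 and ITD611. None of these values for Rpl37, Rpl14 and Rps6 comes from a bright probe set. The brightest probe sets annotated with Rpl37, Rpl14 or Rps6 and another gene had differences of -0.063, -0.028 and -0.0068 on ITD78. Some others of this kind were higher on ITD78, by 0.092 (Rpl37), 0.20 (Rpl14) and 0.44 (Rps6).

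On ITD598 none of the 42 was higher by 0.5, against 1.8% of all genes, and none was lower, against 1.07%. The differences ran from -0.068 (Rpl38, a large-subunit protein that in mice affects the translation of Hox genes) to 0.47 (Rpl37). Without the ITD78 array, or without the ITD611 array, the Rpl37 difference became 0.56 and passed the rule. The brightest probe set annotated with Rpl37 and another gene had a difference of 0.0027 on ITD598, and another bright probe set had 0.12. The median difference was 0.0090, with 25 of 42 members above 0, against 48.5% of all genes.

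On ITD602 again none of the 42 was higher by 0.5, against 4.39% of all genes, and none was lower, against 4.06%. The median difference was 0.0075, with 26 of 42 above 0, against 55.4% of all genes. Rps25 stood 0.42 above the mean of the other 4, Rps27l 0.39 and Rps27 0.36. Other probe sets did not give these sizes: the further ones of Rps27l gave 0.066 and 0.093, and the brighter ones annotated with several genes gave -0.021 for Rps25 and -0.16 for Rps27. Rpsa, a small-subunit protein also known as a laminin receptor precursor, read 12.26 on ITD602, against 12.02 on ITD613, 12.08 on ITD78, 12.09 on ITD598 and 12.09 on ITD611. The lowest difference of a chosen probe set was -0.15 (Rps20). A second bright probe set of Rps20 gave -0.35 on ITD602, and its dim ones gave -0.22 and 0.14. Of the probe sets that include Rpl17, the bright ones gave -0.42, -0.17 and -0.075, and a dimmer one gave 0.075. After Rps20 came Rpl27a, a large-subunit protein, at -0.13, with 5.43 on ITD602 and 5.54 to 5.63 on the other arrays. A bright probe set annotated with Rpl27a and other genes had a difference of 0.020 on ITD602. Among the probe sets with several symbols, 4 of those annotated with Rps6 and another gene were low on ITD602, with differences from -0.84 to -0.65. Their means ran from 1.99, within the range of shared values, to 9.33, and the 4 brightest of these probe sets lay between -0.15 and 0.071. A probe set annotated with Rps21 and another gene read 5.98 on ITD602 and 7.09 to 7.49 on the other 4 arrays, a difference of -1.30. In the other direction, one that includes Rps15a read 3.54 on ITD602, in the range of shared values, with a difference of 0.76.

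On ITD611 none of the 42 was higher by 0.5, against 1.5% of all genes, and none was lower, against 2.53%. Fewer members stood above the mean of the other 4 arrays than on any other array, 13 of 42 (31%), against 45.2% of all genes. The median difference was -0.022, beside -0.020 for all genes. The lowest were the small-subunit genes Rps19 (-0.15), Rps15 (-0.15), Rps18 (-0.14) and Rps9 (-0.13). Rps15 read 11.23 on ITD611, against 11.44 on ITD613, 11.39 on ITD78, 11.32 on ITD598 and 11.38 on ITD602. Rps18 read 11.99 on ITD611, against 12.11, 12.15, 12.13 and 12.14 on the same arrays. ITD611 was also the array with the highest small-subunit ribosomal RNA control: its 5′ probe set read 10.90 on ITD611, against 9.85 on ITD613, 9.88 on ITD78, 9.73 on ITD598 and 9.79 on ITD602. The part of the labelled RNA taken by ribosomal RNA in these differences was not tested.

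The subunits were set side by side without a test. On ITD613 the median difference was 0.0042 over 22 large-subunit members and 0.011 over 20 small-subunit members, with 2 lower by 0.5 in each. For the large and the small subunit in turn, the medians were 0.0063 and 0.024 on ITD78, 0.0043 and 0.016 on ITD598, 0.0019 and 0.023 on ITD602, and -0.015 and -0.028 on ITD611. Over pairs of arrays, the median absolute difference of the 42 members ran from 0.024 (ITD78 and ITD598) to 0.073 (ITD613 and ITD611), whereas for all genes it ran from 0.086 (ITD598 and ITD611) to 0.29 (ITD613 and ITD602).

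The paralogues that the rule admits were mostly dim. Rpl3l, a paralogue of Rpl3 in heart and skeletal muscle, read 1.22 on ITD613 and 1.22 to 1.37 on the other 4 arrays. Rpl39l, a paralogue of Rpl39 known from testis, read 1.08 on ITD613 and 0.90 to 1.03 on the others, and Rps4l read 1.64 and 1.37 to 1.71. The values of these 3 genes lie in the range of shared values. Rpl39 itself read 3.51 on ITD613, 3.50 on ITD78 and 3.39 on ITD598, ITD602 and ITD611, in the same range, while a probe set annotated with Rpl39 and another gene read 12.46 on ITD613, 12.50 on ITD78, 12.48 on ITD598, 12.22 on ITD602 and 12.46 on ITD611. Rps16 had a single probe set of its own, at 1.09 on ITD613 and 0.76 to 1.02 on the others. Probe sets annotated with Rps16 and other genes read 11.83 and 12.64 on ITD613, so the dim values of Rps16 and Rpl39 say nothing of the genes' levels. Of paralogues outside the rule, Rpl22l1 read 10.13 on ITD613, 10.53 on ITD78, 10.53 on ITD598, 10.19 on ITD602 and 10.38 on ITD611.

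Other genes of translation gave the comparison. Fau, which encodes a small-subunit protein fused to a ubiquitin-like domain, read 11.94 on ITD613, 11.92 on ITD78, 11.74 on ITD598, 11.89 on ITD602 and 11.74 on ITD611. Of 14 other genes with TOP messenger RNAs, 13 had a probe set, and none differed by 0.5 on any array. Over all genes 12.6% were higher and 9.51% lower on ITD613, and between 1.07% and 4.39% either way on the other arrays. The widest ranges among the 13 were those of Eef2, the translocation factor of elongation (10.44 on ITD613 and 9.95 to 10.17 on the other 4), Npm1, a nucleolar chaperone of ribosome assembly (11.40 on ITD613 and 11.61 to 11.89), and Eif3h (0.45).

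Genes of the mitochondrial ribosome and of initiation moved more between arrays than the cytoplasmic ribosomal protein genes in their medians. The 76 mitochondrial ribosomal protein genes had a median difference of -0.070 on ITD613, -0.15 on ITD78, 0.074 on ITD598, 0.19 on ITD602 and -0.015 on ITD611, and 64 of 76 stood above 0 on ITD602, against 55.4% of all genes, and 11 of 76 on ITD78, against 42.7%. By the rule of 0.5, 3 were higher and 3 lower on ITD613, 1 was higher on ITD602 and none was called on the other arrays. Over all genes 12.6% were higher and 9.51% lower on ITD613, and 4.39% were higher on ITD602. Mrpl24 read 8.62 on ITD613 and 7.78 to 7.84 on the others, Mrpl52 read 10.33 on ITD613 and 9.43 to 9.92, and Mrps35 read 6.48 on ITD613 and 6.67 to 7.33. Of 45 initiation factor genes, 42 passed the filter, with medians of -0.15 on ITD613 and 0.072 on ITD602. Among them 1 was lower on ITD613 and 1 was higher on ITD602, in both cases Eif4e3, a relative of the cap-binding protein, at 4.64 on ITD613, 5.59 on ITD602 and 5.00 to 5.26 on the others. The mean level per array ran from 7.41 to 7.67 for the mitochondrial list and from 7.77 to 7.97 for the initiation factors. Of the 42 cytoplasmic members, 33 had a mean of at least 11. The part of this difference in brightness in the medians was not tested. No test of the difference between these lists was made.

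**Figure D5:**
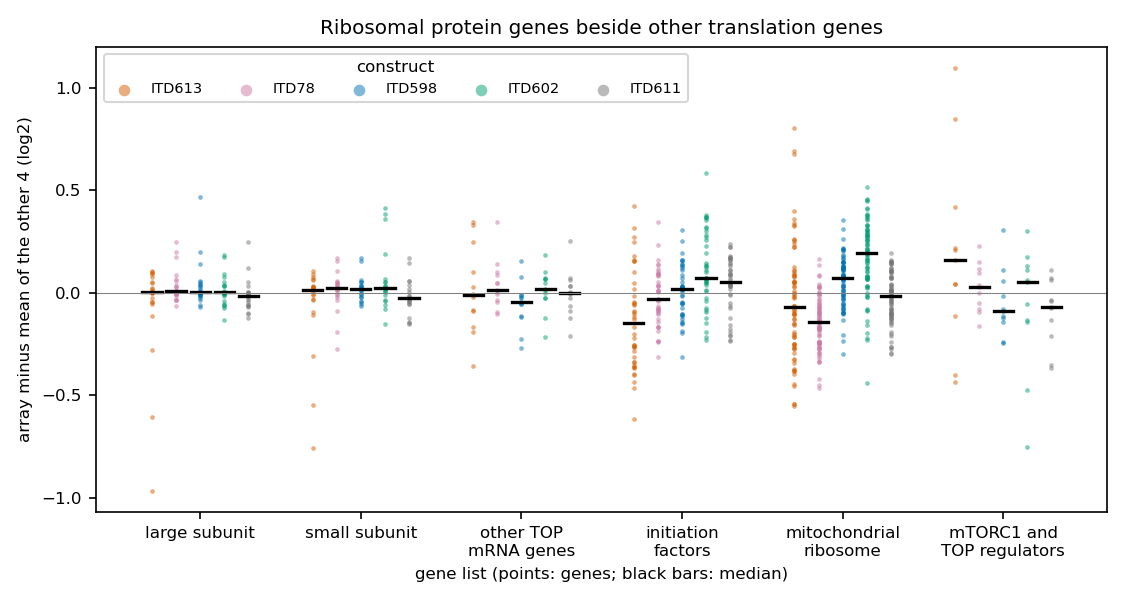
Difference of each array from the mean of the other 4 (log2) for genes of 6 lists, with 1 point per gene and a black bar at the list's median. The bars of both cytoplasmic subunits lie within 0.03 of 0 on all 5 arrays, and those of the mitochondrial ribosome reach 0.19 on ITD602 and -0.15 on ITD78.

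Of 12 genes of mTORC1 and of the control of TOP messenger RNAs, 11 were tested. On ITD613, 2 were higher by 0.5 and none was lower, beside 12.6% and 9.51% of all genes. Tsc1, a subunit of the complex that restrains mTORC1, read 6.53 on ITD613, against 5.77 on ITD78, 5.56 on ITD598, 5.05 on ITD602 and 5.36 on ITD611. Tsc1 was also the 1 gene of this list called on ITD602, where its difference was -0.75 and 4.06% of all genes were lower by 0.5. Mknk2, a kinase of the cap-binding protein, read 9.26 on ITD613, against 8.77, 8.39, 8.21 and 8.30 on the same 4 arrays. Eif4ebp1, an inhibitor of that protein controlled by mTORC1, had a difference of -0.40 on ITD613, short of the rule. Larp1, which binds TOP messenger RNAs, read 8.15 on ITD613 and 8.21 to 8.35 on the others.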

How the data were processed

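RMA gave the deposited log2 values, per the submitters' processing notes; its software and probe definition are not given in the sources used here. Base 2 was inferred, since the highest value (13.45) exceeds what natural logs of scanner intensities could reach (11.09). The zero point is not stated. Columns without a sample numbered 0. Of 45101 probe sets, 64 were controls, 34945 had 1 symbol, 932 had several and 9160 were unnamed. No replicate and no array without a construct was analysed here, so no test was made and an SD is the spread over constructs.

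The named members were drawn by a rule: per array the furthest above and below the other 4, those ranging over at least 1, the brightest and dimmest, and fixed lists by role. Not all members that met it are named, and the steadiest were named outside it. Named otherwise are those said to be so. The members and lists were chosen with earlier results of these data known. The calling code was run on simulated data with the spread between ITD598 and ITD611 and with shifts well above the rule. That run checks the code and cannot give the error rate of the rule on ITD613. Alternatives changed the probe set, filter, reference, scaling, low values and arrays used. Python 3.11.15 and pandas 2.3.3 were used.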

Additional observations from a re-analysis of the deposited data

How the results depend on the processing

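The counts and medians were recomputed under 14 alternatives. The members' median differences stayed within 0.04 of 0 throughout, and that of ITD611 stayed below 0. It was -0.017 with the mean of all probe sets, without the filter, with low values raised to 3.74 or with several-symbol probe sets, -0.030 without _x_at and _s_at probe sets, -0.031 against the median of the other arrays, -0.027 for members with a mean of at least 11 and -0.0017 with arrays centred on all genes. Leaving out another array gave -0.036 to -0.023. Centring gave 0.038 on ITD78 and -0.021 on ITD602. The number of members at least 0.5 away on ITD613 was 4, but 0 with several-symbol probe sets and 0 among members with a mean of at least 11. Each of the 4 has 1 probe set of its own. Averaging probe sets, dropping the filter or raising low values therefore could not change their differences. The number on ITD613 was 3 without ITD602 (Rps25 lost) and 3 with the filter at the 80th percentile (Rps27 lost). Without _x_at and _s_at probe sets it was 4 with other genes, Rpl37 having no probe set and Rps20 entering at -0.82, and 1 member, Rps20, was called on ITD78, where it was 0.73 higher. On ITD598 the count was 0 to 1 with another array left out. The 1 member ranging over at least 1 became 0 with several-symbol probe sets, 0 for members with a mean of at least 11, and 0 to 1 with an array left out (0 without ITD613 or ITD598). No paired analysis was possible because each construct has 1 array. The cause of these changes was not tested, except that the alternatives for several symbols and for bright members leave out dim probe sets by construction.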
